A study of Danio rerio with 6 samples.

Results

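The genes described here are 6 apolipoprotein genes (apoa1a, apoa1b, apoa2, apoc1, apoea and apoeb), 2 genes of intracellular fatty acid carriers (fabp1b.1 and fabp2) and the transferrin gene tfa. These 9 genes were picked by name from a table of 29126 genes, with earlier results of these data known, and all 9 were found in it. Their RNA was measured by sequencing of poly-A RNA from Tg(fli1:EGFP) zebrafish cells. In that reporter line, fli1a regulatory sequence drives green fluorescent protein in blood vessels and in some blood cells, among other cells. There were 6 libraries, 2 for each of the populations labelled High-Fli1+, Low-Fli1+ and Fli1-. All 3 populations carry the same transgene and differ by the level of Fli1 reporter signal that their names give. The labels used here give neither the age of the fish, nor how the cells were separated, nor whether the 2 libraries of a population came from separate fish. The spread between the 2 libraries may therefore be technical, and p-values measure only that spread.

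Apolipoproteins are the protein coats of lipoprotein particles, which carry fat and cholesterol through the blood. Apolipoproteins A-I and A-II build high-density lipoprotein, apolipoprotein C-I modulates the enzymes and receptors that act on the particles, and apolipoprotein E is the ligand by which receptors of the low-density lipoprotein receptor family take particles up. In fish larvae these genes are known from the yolk syncytial layer, the liver and the gut, and apoeb is also known from microglia, the macrophages of the brain. Fatty acid binding proteins ferry fatty acids inside the cell: fabp1b.1 encodes a liver-type and fabp2 the intestinal form. Transferrin carries iron in blood and is made by the liver, so tfa is an iron carrier and not a lipid carrier.

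Values are FPKM, read fragments per kilobase of transcript scaled to the mapped fragments of the library, as the authors deposited them. FPKM is a level per transcript length, which lets genes be set beside each other. The FPKM sum of a library ran from 430723 to 712585, and sequencing depth cannot be read from these values, so no counting error is given for single values. A single noncoding entry, Metazoa_SRP, held between 1.77% (Low-Fli1+ replicate 1) and 27.4% (High-Fli1+ replicate 2) of that sum. Many genes are listed at exactly 0, among them genes that every cell uses. Of 65 genes of the proteasome, chaperonin, RNA polymerase II and translation initiation factor 3, those at 0 numbered 5 and 6 in the High-Fli1+ libraries, 13 and 6 in the Low-Fli1+ libraries and 5 and 5 in the Fli1- libraries. Where 1 library of a population listed a gene at 0 and its partner held at least 5 FPKM, such genes numbered 1000 in Low-Fli1+ replicate 1 and 570 in Low-Fli1+ replicate 2, against 120 and 119 in High-Fli1+ and 55 and 34 in Fli1- libraries. A 0 is therefore reported below as a listed value only. The transcript of the reporter's own gene followed the labels: fli1a had 241 and 192 FPKM in High-Fli1+, 66.8 and 52.0 FPKM in Low-Fli1+ and 1.04 and 5.55 FPKM in Fli1- libraries.

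Most of the RNA of these 9 genes was in Fli1- cells. Their summed level was 18.1 and 6.67 FPKM in High-Fli1+ libraries, 129 and 148 FPKM in Low-Fli1+ libraries and 403 and 548 FPKM in Fli1- libraries, so the 3 populations did not overlap. In such bulk samples, fewer cells of a type and less RNA per cell cannot be told apart. Of the 9 genes, 5 and 6 were listed at 0 in the High-Fli1+ libraries, 2 and 4 in the Low-Fli1+ libraries and 1 and 0 in the Fli1- libraries. The make-up of the sum differed as well. The share that came from apoeb was 25.5% and 42.6% in the High-Fli1+ libraries, 56.9% and 81.4% in the Low-Fli1+ libraries and 20.9% and 19.7% in the Fli1- libraries. In both Low-Fli1+ libraries apoeb gave the largest share, while Fli1- cells held 5 genes at 38 FPKM or more in both libraries.

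**Figure D1:**
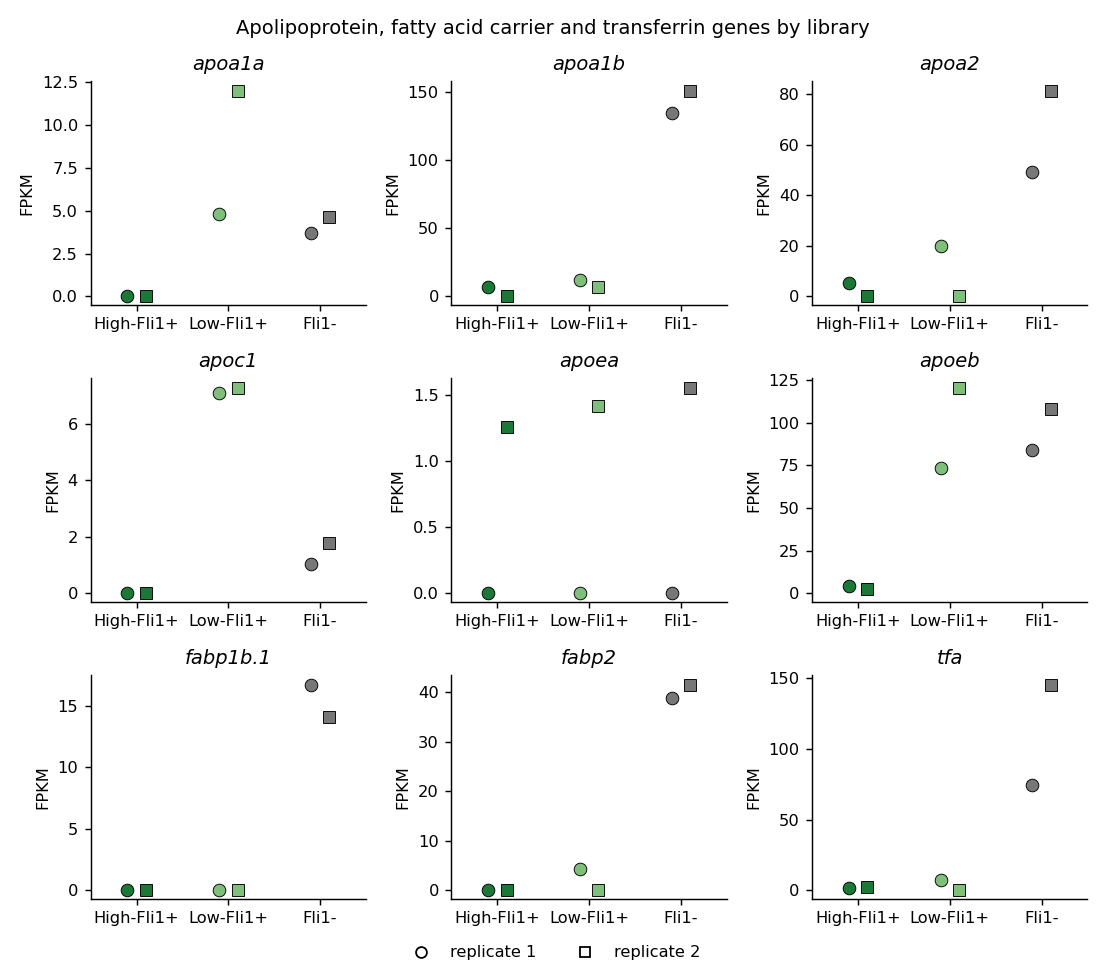
FPKM of the 9 genes in each library, 1 panel a gene with its own linear axis that starts near 0, for High-Fli1+ (dark green), Low-Fli1+ (light green) and Fli1- (grey). Circles are replicate 1 and squares replicate 2. The genes apoa1b, apoa2, fabp1b.1, fabp2 and tfa are highest in both Fli1- libraries, apoa1a and apoc1 are highest in Low-Fli1+, and apoeb is at 73.5 FPKM or more in Low-Fli1+ and Fli1- and at 4.60 FPKM or less in High-Fli1+.

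Within Fli1- cells the order of the genes by FPKM was apoa1b, tfa, apoeb, apoa2, fabp2, fabp1b.1, apoa1a, apoc1 and apoea. The neighbours at the top of this order were not separated: tfa, at 74.5 and 145 FPKM, spanned the values of apoeb and reached into those of apoa1b. From apoeb down to apoa1a, each gene's 2 values lay above both values of the next gene, and apoc1 and apoea overlapped. By rank among all genes of the table, the Fli1- mean of apoa1b stood at the percentile 98.5, that of tfa at 98.0, that of apoeb at 97.5 and that of apoa2 at 95.8. In Low-Fli1+ cells apoeb was the 1 gene of the 9 to stand that high, at the percentile 97.7, and in High-Fli1+ cells it stood at 62.1.

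Populations were compared with limma on log2(FPKM + 1), fitted over all 6 libraries and all 19237 genes with a mean of at least 0.5 FPKM. The threshold for a call was an adjusted p of 0.05 (Benjamini-Hochberg, over every gene tested). All 9 genes passed the minimum, fabp1b.1 only through the Fli1- libraries and apoc1 only through the Low-Fli1+ libraries, where each is high. The gene apoea, with a mean of 0.705 FPKM, needed its values in every population to pass. Some list genes named below, such as apom, fabp6 and hnf1ba, also passed only through the Fli1- libraries. So did most genes called lower against Fli1- cells in the lists of other apolipoproteins, carriers, hepatocytes, enterocytes, pancreas and liver and gut regulators. Some endothelial genes called higher in High-Fli1+ cells passed only through the High-Fli1+ libraries. The counts of those lists therefore depend on the filter. Fold changes are on the log2(FPKM + 1) scale, which understates the change of low genes. Where both libraries of a population are listed at 0, the fitted difference depends on the added 1, and no fold is given. With 2 libraries against 2, an exact permutation test of a single gene cannot go below 0.333.

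In High-Fli1+ against Fli1- cells, 6 of the 9 genes were called lower: apoa1a, apoa1b, apoeb, fabp1b.1, fabp2 and tfa. Of all genes tested, 11.5% were called lower in this comparison. Among the 6, fabp1b.1 passed the minimum only through the Fli1- libraries. None of the 9 was called higher by limma, and none was higher at an unadjusted p under 0.05; 5.79% of all genes were called higher. Both High-Fli1+ libraries lay below both Fli1- libraries in 8 of the 9 genes, all but apoea, against 44.2% of all genes. The median log2 fold change was -4.37 over the 9 genes and -0.35 over all genes tested. As the 9 genes were chosen with earlier results of these data known, such contrasts with all genes are descriptive, here and in the other comparisons.

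Of the genes of high-density lipoprotein, apoa1b and apoa2 had their highest values in Fli1- cells, and apoa1a, a paralog of apoa1b, in Low-Fli1+ cells. The gene apoa1b, for the main structural protein of these particles, had 6.71 and 0 FPKM in High-Fli1+, 12.1 and 6.77 FPKM in Low-Fli1+ and 135 and 151 FPKM in Fli1- libraries. Every Fli1- value was more than 10 times any value of the other populations. High-Fli1+ cells had a 51.8-fold lower level than Fli1- cells (log2 fold change -5.69 ± 0.93 SE, limma adjusted p = 0.0138), a call that ended when High-Fli1+ replicate 2 (0.0507), Fli1- replicate 1 (0.170) or Fli1- replicate 2 (0.164) was left out. The size rests in part on the listed 0: with High-Fli1+ replicate 2 left out the log2 fold change was -4.22, with replicate 1 left out it was -7.17, and a pseudocount of 0.1 gave -7.43. Against Fli1- cells, apoa1b in Low-Fli1+ cells had a log2 fold change of -3.83 ± 0.93 (limma adjusted p = 0.0883), and neither this nor the difference between High-Fli1+ and Low-Fli1+ cells was called (-1.86, adjusted p = 0.294).

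The paralog apoa1a had another pattern. It was listed at 0 in both High-Fli1+ libraries, had 4.79 and 12.0 FPKM in Low-Fli1+ libraries and 3.70 and 4.66 FPKM in Fli1- libraries. Both Low-Fli1+ values were above both Fli1- values, with a log2 fold change of 0.75 ± 0.59 that did not pass the test (limma adjusted p = 0.525). High-Fli1+ was called lower than Fli1- (log2 difference -2.37 ± 0.59, adjusted p = 0.0442) and lower than Low-Fli1+ (-3.12 ± 0.59, adjusted p = 0.0442). Both calls lie close to the threshold. That against Fli1- was lost in 10 of 17 alternatives, among them the fits without High-Fli1+ replicate 1 (adjusted p = 0.169), High-Fli1+ replicate 2 (0.175), Fli1- replicate 1 (0.199) and Fli1- replicate 2 (0.214), and the replicate block (0.0583). That against Low-Fli1+ was lost in 12 of 17, among them the fits without High-Fli1+ replicate 1 (0.167), High-Fli1+ replicate 2 (0.187), Low-Fli1+ replicate 1 (0.0516), Fli1- replicate 1 (0.156) and Fli1- replicate 2 (0.157), and the replicate block (0.0570).

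The gene apoa2, for the second structural protein of high-density lipoprotein, had 5.13 and 0 FPKM in High-Fli1+, 20.1 and 0 FPKM in Low-Fli1+ and 49.1 and 81.2 FPKM in Fli1- libraries. Both Fli1- libraries were above all 4 others. Replicates within the fluorescent populations were far apart, and no difference was called (log2 fold change -4.70 ± 1.55, limma adjusted p = 0.0949, for High-Fli1+ and -3.80 ± 1.55, adjusted p = 0.241, for Low-Fli1+, each against Fli1-). Without Low-Fli1+ replicate 1 or replicate 2 the High-Fli1+ difference was called, at adjusted p = 0.0387 and 0.0375.

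Of the genes that act on particles and on their uptake, apoeb had the highest level in each population. It encodes an apolipoprotein E and had 4.60 and 2.84 FPKM in High-Fli1+, 73.5 and 120 FPKM in Low-Fli1+ and 84.0 and 108 FPKM in Fli1- libraries. The means were 3.72 ± 1.25, 96.9 ± 33.1 and 95.9 ± 16.8 FPKM in that order (SD, n = 2 each). High-Fli1+ cells had 20.7-fold less than Fli1- cells (log2 fold change -4.37 ± 0.36, limma adjusted p = 0.00306) and 20.5-fold less than Low-Fli1+ cells (-4.36 ± 0.36, adjusted p = 0.0107). Low-Fli1+ and Fli1- values overlapped, with a log2 fold change of -0.02 ± 0.36 (adjusted p = 0.990) whose sign turned under quantile normalization and with Metazoa_SRP left out of the scaling. A p of this size does not show that the 2 levels are equal.

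The call of apoeb against Fli1- was kept in 16 of 17 alternatives, the exception being the fit that left out High-Fli1+ replicate 2 (adjusted p = 0.0507). The call against Low-Fli1+ was kept, of the 6 fits with 1 library left out, only without Low-Fli1+ replicate 2 (0.0328). It was lost without High-Fli1+ replicate 1 (0.0719), High-Fli1+ replicate 2 (0.0991), Low-Fli1+ replicate 1 (0.0501), Fli1- replicate 1 (0.138) and Fli1- replicate 2 (0.139). The fits that lost it left the whole table without a call in this comparison, so the loss is not particular to apoeb. Both High-Fli1+ libraries were more than 10 times below every other library.

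The second apolipoprotein E gene, apoea, was near the lower limit of the table. It had 0 and 1.26 FPKM in High-Fli1+, 0 and 1.42 FPKM in Low-Fli1+ and 0 and 1.55 FPKM in Fli1- libraries. In each population replicate 1 was at 0 and replicate 2 was above it, and the populations overlapped. Its log2 fold changes were -0.09, -0.04 and -0.05 in the 3 comparisons, none called, and their signs turned with quantile normalization.

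The gene apoc1, for apolipoprotein C-I, was highest in Low-Fli1+ cells. It was listed at 0 in both High-Fli1+ libraries, had 7.08 and 7.26 FPKM in Low-Fli1+ libraries and 1.03 and 1.77 FPKM in Fli1- libraries, and the 3 populations did not overlap. It passed the minimum mean only through the Low-Fli1+ libraries, and its listed 0 values add no spread to its standard error. It was called lower in High-Fli1+ than in Low-Fli1+ cells (log2 difference -3.03 ± 0.48, limma adjusted p = 0.0310). That call was lost without High-Fli1+ replicate 1 (0.119), High-Fli1+ replicate 2 (0.141), Low-Fli1+ replicate 1 (0.0533), Fli1- replicate 1 (0.138) and Fli1- replicate 2 (0.139), and with the replicate block (0.0513). Low-Fli1+ against Fli1- gave 1.78 ± 0.48 (adjusted p = 0.110) and High-Fli1+ against Fli1- gave -1.25 ± 0.48 (adjusted p = 0.139), neither of them called.

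The intracellular carriers had their highest levels in Fli1- cells. The gene fabp1b.1 was listed at 0 in all 4 libraries of High-Fli1+ and Low-Fli1+ cells and had 16.6 and 14.1 FPKM in Fli1- libraries. Against Fli1- cells it was called lower in High-Fli1+ cells (limma adjusted p = 0.00569) and also in Low-Fli1+ cells (0.0237). It passed the minimum mean through the Fli1- libraries alone. The 4 listed 0 values add no spread to its standard error (0.46), and both calls rest on them. Its neighbour and near copy fabp1b.2, looked up after the values were seen, was listed at 0 in all 6 libraries, and how reads were divided between the 2 copies is not given in the sources used here. The High-Fli1+ call was lost without High-Fli1+ replicate 1 (0.0520) or replicate 2 (0.0571), and the Low-Fli1+ call without High-Fli1+ replicate 1 (0.0987), High-Fli1+ replicate 2 (0.101) or Low-Fli1+ replicate 1 (0.0592).

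The intestinal carrier gene fabp2 was listed at 0 in both High-Fli1+ libraries, had 4.42 and 0 FPKM in Low-Fli1+ libraries and 38.8 and 41.4 FPKM in Fli1- libraries. Fli1- replicates lay close together and above all other libraries. High-Fli1+ cells were called lower than Fli1- cells (log2 difference -5.36 ± 0.84, limma adjusted p = 0.0126). The Low-Fli1+ difference from Fli1- was -4.14 ± 0.84 (adjusted p = 0.0631), and it passed the threshold without Low-Fli1+ replicate 2 (0.0467). The High-Fli1+ call was lost without High-Fli1+ replicate 1 (0.0975), High-Fli1+ replicate 2 (0.105), Fli1- replicate 1 (0.148) or Fli1- replicate 2 (0.136).

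The transferrin gene tfa had 1.65 and 2.57 FPKM in High-Fli1+, 7.08 and 0 FPKM in Low-Fli1+ and 74.5 and 145 FPKM in Fli1- libraries. Fli1- libraries were the highest, and High-Fli1+ and Low-Fli1+ libraries overlapped. High-Fli1+ cells had 34.1-fold less than Fli1- cells (log2 fold change -5.09 ± 0.99, limma adjusted p = 0.0226), a call lost without High-Fli1+ replicate 1 (0.153), High-Fli1+ replicate 2 (0.143), Fli1- replicate 1 (0.185) or Fli1- replicate 2 (0.224). The Low-Fli1+ difference from Fli1- was -5.21 ± 0.99 and missed the threshold (adjusted p = 0.0550). Without Low-Fli1+ replicate 2, the library at 0, it was -3.70 and passed (0.0494), and without Low-Fli1+ replicate 1 it was -6.71 (0.0592).

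**Figure D2:**
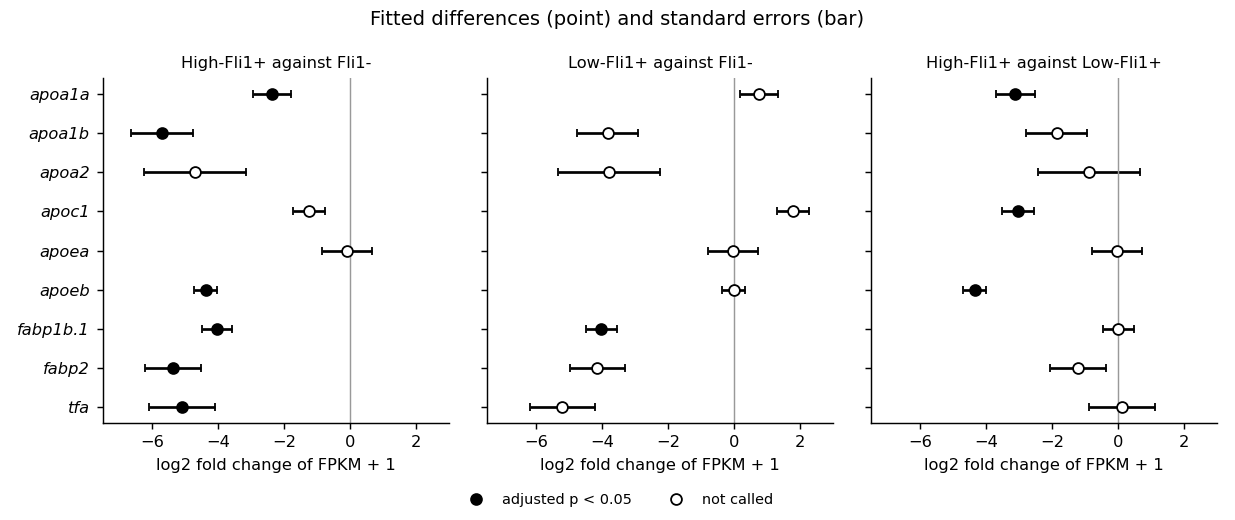
Fitted differences of the 9 genes in the 3 comparisons on the log2(FPKM + 1) scale, with High-Fli1+ against Fli1- on the left, Low-Fli1+ against Fli1- in the middle and High-Fli1+ against Low-Fli1+ on the right. Points are estimates, bars are standard errors and filled points have an adjusted p under 0.05. There are 6 filled points on the left, 1 in the middle and 3 on the right, all below 0.

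In Low-Fli1+ against Fli1- cells, 1 of the 9 genes was called, where 3.23% of all genes tested were called in either direction (411 higher and 211 lower). That gene, fabp1b.1, was lower, with both Low-Fli1+ libraries listed at 0, and it passed the minimum through the Fli1- libraries alone. None was called higher by limma, and 1 gene, apoc1, was higher at an unadjusted p under 0.05. Both Low-Fli1+ libraries lay below both Fli1- libraries for 5 of the 9 genes (30.5% of all genes) and above them for 2, apoa1a and apoc1 (18.9% of all genes). The median log2 fold change was -3.80 over the 9 genes, which is the value of apoa2, and -0.21 over all genes. Without Low-Fli1+ replicate 2, where apoa2 is listed at 0, the median of the 9 was -1.60. This comparison and the previous one share the Fli1- libraries, so their values are not independent of each other.

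In High-Fli1+ against Low-Fli1+ cells, 3 of the 9 genes were called lower: apoa1a, apoc1 and apoeb. Of all genes tested, 4.15% were. Among the 3, apoc1 passed the minimum only through the Low-Fli1+ libraries. None of the 9 was called higher by limma or at an unadjusted p under 0.05, and 1.22% of all genes were called higher. Both High-Fli1+ libraries lay below both Low-Fli1+ libraries for 4 of the 9 genes, against 28.3% of all genes. The fourth, apoa1b, was not called. The median log2 fold change was -1.22 over the 9 genes and -0.13 over all genes. Leaving out 1 library moved the median of the 9 to -2.44 without Low-Fli1+ replicate 2, -2.20 without High-Fli1+ replicate 1, -0.69 without Low-Fli1+ replicate 1 and -0.64 without High-Fli1+ replicate 2.

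No call on the 9 genes was kept in all 6 fits that leave out 1 library, in any of the 3 comparisons (0 of 6, 0 of 1 and 0 of 3 calls). Leaving out 1 library moved the number called between 0 and 7 for High-Fli1+ against Fli1-, between 0 and 3 for Low-Fli1+ against Fli1- and between 0 and 4 for High-Fli1+ against Low-Fli1+. In Low-Fli1+ against Fli1- and in High-Fli1+ against Low-Fli1+, each such fit that ended a call of the 9 left the whole table without calls there. Those losses are therefore not particular to the 9 genes. The direction of each of the 10 calls was the same under every alternative run. In each of them both libraries of the lower population lay below both of the other. Leaving out a library or changing the pseudocount therefore could not turn the direction, and its constancy is no support for the calls.

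Other settings ended calls as well. Without a filter on low values, the High-Fli1+ against Fli1- calls of apoa1a (adjusted p = 0.116), apoa1b (0.0676), fabp2 (0.0563) and tfa (0.0938) were lost, and a pseudocount of 0.1 ended those of apoa1b (0.0573) and tfa (0.126). Of the High-Fli1+ against Low-Fli1+ calls, apoa1a and apoc1 were lost without the filter (0.126 and 0.0822) and with array weights (0.0781 and 0.0764), and all 3 were lost when only those populations were fitted (0.143 to 0.162). Over the 17 alternatives in High-Fli1+ against Fli1-, the adjusted p of apoeb ran from 0.000339 to 0.0507, that of fabp1b.1 from 0.00102 to 0.0571, that of apoa1b from 0.00253 to 0.170, that of fabp2 from 0.000918 to 0.148, that of tfa from 0.00192 to 0.224 and that of apoa1a from 0.00916 to 0.214. A pseudocount of 5 lowered the size of log2 fold changes in High-Fli1+ against Fli1-, to -3.53 for apoeb and -3.94 for tfa. In High-Fli1+ against Low-Fli1+ the ranges of adjusted p were 0.00725 to 0.143 for apoeb, 0.0221 to 0.143 for apoc1 and 0.0333 to 0.187 for apoa1a. In Low-Fli1+ against Fli1- the range for fabp1b.1 was 0.0167 to 0.104, the highest with only those populations fitted. In the same comparison fabp2 and tfa, not called as reported, passed with a pseudocount of 5 (0.0271 for each) and with quantile normalization (0.0486 and 0.0390), apoa1b passed with a pseudocount of 5 (0.0262), and tfa with a mean FPKM of at least 2 (0.0473).

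Scaling moved the balance of the whole table. Over all genes in High-Fli1+ against Fli1-, quantile normalization brought the median to 0.01 (log2), against -0.35 with the values as deposited, and split the calls into 1666 higher and 1719 lower, against 1113 and 2203. Median-ratio scaling brought it to -0.09.

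**Figure D3:**
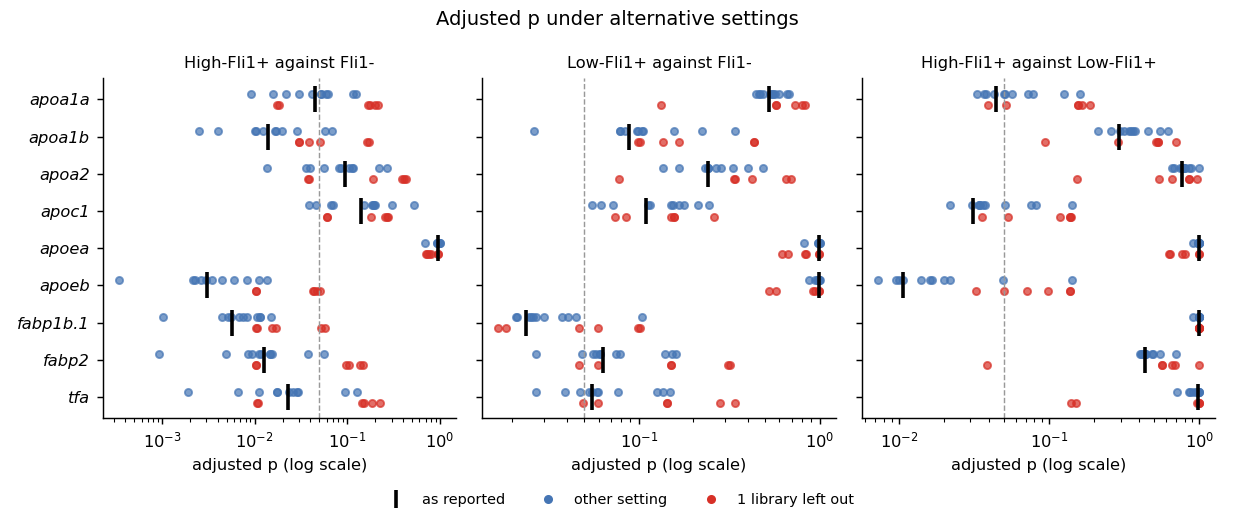
Adjusted p of the 9 genes in the 3 comparisons on a log axis, as reported (black bars), under other settings (blue) and with 1 library left out (red), with the threshold of 0.05 as a dashed line. Red points of every called gene reach or cross the line in its comparison; in High-Fli1+ against Fli1- apoeb crosses it once, at 0.0507.

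The 9 genes did not share 1 profile over the 6 libraries. As a measure of likeness, the Euclidean distance between centred log2(FPKM + 1) profiles was smallest for apoa1a and apoc1 (1.49), fabp2 and tfa (1.62) and apoa1a and apoeb (2.09). The paralogs apoa1a and apoa1b stood 5.35 apart and apoea and apoeb 5.17 apart. Profiles were not scaled, so this distance also grows with the range of a gene over the libraries. On the log2 scale that range was 1.35 for apoea, 3.05 for apoc1, 6.36 for apoa2 and 7.25 for apoa1b. In the RefSeq annotation of the assembly GRCz12tu, used here for gene order alone, apoa4b.2, apoeb, apoc1, apoc4, apoa2 and apoc2 follow each other as adjacent coding genes. Members of this cluster did not share a profile: apoeb and apoc1 stood 3.20 apart and apoc1 and apoa2 6.71 apart. The cluster's other genes included apoa4b.2, listed at 0 in High-Fli1+ and Low-Fli1+ libraries and at 3.30 and 7.06 FPKM in Fli1- libraries. Looked up after the values were seen, apoc2 had 0 and 0 FPKM in High-Fli1+, 9.47 and 0 FPKM in Low-Fli1+ and 15.8 and 9.80 FPKM in Fli1- libraries, and apoc4 was listed at 0 in all 6.

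Outside the 9 genes, 15599 tested genes with settled names were ranked by the same distance to each of them. The profiles nearest to apoeb were those of nell2a (0.31), pde6g (0.43) and apba1b (0.57), each with both High-Fli1+ libraries below 2 FPKM and all other libraries at 15.03 FPKM or more. Those nearest to fabp1b.1 were afp4 (0.30), pax5 (0.38) and cldn15la (0.46). Those nearest to fabp2 were eng2b (0.72), anxa2b (0.96) and atp1b1b (1.27), and eng2b was also among the nearest to tfa (1.80), with cdh1 (1.78) and krt92 (2.11). The nearest to apoc1 were asb5a (0.43), sec22c (0.63) and b3gnt2a (0.66), and the nearest to apoa1a were cx32.2 (0.35), cmklr1 (0.49) and six7 (0.52). For the other genes the nearest were cldnb, lhx1a and gad1b for apoa1b (1.68 to 1.94), scg2a, krt92 and zfpm2a for apoa2 (1.30 to 1.74), and cry1ab, dcaf17 and arg2 for apoea (0.50 to 0.55). With 6 points a profile, these distances describe these libraries only.

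Other genes of the same pathways were taken from lists, and the lists were chosen with earlier results of these data known. The counts of all lists below stand beside these shares of all genes tested. In High-Fli1+ against Fli1- cells, 11.5% were called lower and 5.79% higher. In Low-Fli1+ against Fli1- cells, 3.23% were called in either direction. In High-Fli1+ against Low-Fli1+ cells, 4.15% were called lower and 1.22% higher. Both High-Fli1+ libraries lay below both Fli1- libraries in 44.2% of all genes, and both Low-Fli1+ libraries did in 30.5%. The share with both High-Fli1+ libraries above both Fli1- libraries is not reported here. A count near such a share is no result about its list. Of 8 tested genes for other apolipoproteins, 4 were called lower and 1 higher in High-Fli1+ against Fli1- cells, and 1 lower and 1 higher in Low-Fli1+ against Fli1- cells. The median log2 fold changes of the 8 were -2.68 and -2.31. All those called lower passed the minimum only through the Fli1- libraries. The lower ones included apom, for a carrier of sphingolipid in high-density lipoprotein, listed at 0 in all High-Fli1+ and Low-Fli1+ libraries and at 6.31 and 7.04 FPKM in Fli1- libraries (limma adjusted p = 0.0105 and 0.0339). Also lower in High-Fli1+ was apobb.1, for the apolipoprotein B that holds together very-low-density particles, with 0.0657 and 0.150 FPKM in High-Fli1+, 0 and 0 FPKM in Low-Fli1+ and 3.02 and 2.52 FPKM in Fli1- libraries (adjusted p = 0.0366 for High-Fli1+). The gene apoda.2, for an apolipoprotein D, was listed at 0 in High-Fli1+ and Low-Fli1+ libraries and at 15.4 and 5.01 FPKM in Fli1- libraries (adjusted p = 0.0195 for High-Fli1+). In both comparisons with Fli1- cells, 6 of the 8 had a log2 fold change below 0. The gene called higher was clu, for clusterin, an extracellular chaperone also called apolipoprotein J. It had 24.1 and 19.001 FPKM in High-Fli1+, 42.6 and 37.7 FPKM in Low-Fli1+ and 8.30 and 6.54 FPKM in Fli1- libraries, and was called higher than Fli1- in both (log2 fold changes 1.42 ± 0.29 and 2.30 ± 0.29, adjusted p = 0.0259 for each).

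Of 9 tested genes for other fatty acid and retinoid carriers, 4 were called lower in High-Fli1+ and 4 in Low-Fli1+ against Fli1- cells, and 1 was lower in High-Fli1+ against Low-Fli1+ cells. These were fabp7a, fabp10b, fabp6 and rbp2a, and all but fabp7a passed the minimum only through the Fli1- libraries. The brain-type gene fabp7a had 11.8 and 18.4 FPKM in High-Fli1+, 65.4 and 55.9 FPKM in Low-Fli1+ and 195 and 291 FPKM in Fli1- libraries. It is the carrier of radial glia, and the 3 populations were called apart in each comparison (log2 fold changes -3.92 ± 0.32, -1.96 ± 0.32 and -1.96 ± 0.32, limma adjusted p = 0.00315, 0.0410 and 0.0331). The bile acid carrier gene fabp6 was listed at 0 in High-Fli1+ and Low-Fli1+ libraries and had 22.1 and 6.53 FPKM in Fli1- libraries. The same was true of rbp2a, for a retinol carrier of enterocytes, with 6.54 and 7.99 FPKM in Fli1- libraries.

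Most genes for making and secreting lipoproteins were not called. In High-Fli1+ against Fli1- cells, 7 of 12 tested had a log2 fold change below 0, and the median was -0.28. Of 12 tested, 2 were called higher and none lower in High-Fli1+ against Fli1- cells by limma, where 1 was lower at an unadjusted p under 0.05, and none was called in the other comparisons (at an unadjusted p under 0.05, 2 lower and 1 higher in Low-Fli1+ against Fli1-, and 1 higher in High-Fli1+ against Low-Fli1+). One of the 2 was surf4l, with 85.3 and 46.7 FPKM in High-Fli1+, 23.2 and 43.0 FPKM in Low-Fli1+ and 15.1 and 10.5 FPKM in Fli1- libraries. The other was p4hb, for the protein disulfide isomerase that is also a subunit of the lipid transfer complex, with 341 and 353 FPKM in High-Fli1+ against 89.3 and 86.9 FPKM in Fli1- libraries. The gene for the transfer protein itself, listed as mtp, had 2.22 and 0 FPKM in High-Fli1+, 0 and 8.95 FPKM in Low-Fli1+ and 14.8 and 7.44 FPKM in Fli1- libraries and was not called (adjusted p = 0.193 for High-Fli1+ against Fli1-).

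Among genes that act on circulating particles and on cell lipid export, 10 were tested, and 1 was called higher and 1 lower in High-Fli1+ against Fli1- cells. The higher one was lpl, for the lipase that works on the inner wall of vessels, with 33.4 and 36.2 FPKM in High-Fli1+, 15.3 and 16.7 FPKM in Low-Fli1+ and 8.38 and 11.9 FPKM in Fli1- libraries (log2 fold change 1.70 ± 0.29, limma adjusted p = 0.0163). The lower one was abca1a, for the transporter that loads lipid onto apolipoprotein A-I, with 26.6 and 17.2 FPKM in High-Fli1+ against 57.7 and 45.7 FPKM in Fli1- libraries (-1.22 ± 0.31, adjusted p = 0.0450). That call was lost in 11 of 17 alternatives.

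Of 14 tested lipoprotein receptors, 3 were called lower and 1 higher in High-Fli1+ against Fli1- cells, 1 was higher in Low-Fli1+ against Fli1- cells and 1 lower in High-Fli1+ against Low-Fli1+ cells. Among receptors that bind apolipoprotein E, lrp8 had 7.86 and 3.04 FPKM in High-Fli1+, 32.7 and 34.5 FPKM in Low-Fli1+ and 52.0 and 48.8 FPKM in Fli1- libraries, and was called lower in High-Fli1+ than in both others (limma adjusted p = 0.00812 against Fli1- and 0.0323 against Low-Fli1+). The gene vldlr had 13.3 and 12.7 FPKM in High-Fli1+ against 45.1 and 44.7 FPKM in Fli1- libraries (adjusted p = 0.0133). The opposite held for lrp1aa, with 474 and 406 FPKM in High-Fli1+, 467 and 348 FPKM in Low-Fli1+ and 85.7 and 116 FPKM in Fli1- libraries (adjusted p = 0.00834 and 0.0325 against Fli1-). The gene ldlra, for the low-density lipoprotein receptor, had 18.1 to 30.4 FPKM over the 6 libraries and no called difference, and neither had scarb1, for a receptor of high-density lipoprotein.

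Beside tfa, genes of iron handling were set out in the same way. Of 10 tested, 3 were called lower in High-Fli1+ against Fli1- cells, none in Low-Fli1+ against Fli1- cells by limma (3 at an unadjusted p under 0.05), and 1 in High-Fli1+ against Low-Fli1+ cells. The receptor that takes up transferrin in erythroid cells, tfr1a, had 7.31 and 7.45 FPKM in High-Fli1+, 42.2 and 22.6 FPKM in Low-Fli1+ and 61.1 and 66.0 FPKM in Fli1- libraries (log2 fold change -2.94 ± 0.35, limma adjusted p = 0.00621, for High-Fli1+ against Fli1-). Its paralog tfr1b lay between 10.3 and 18.9 FPKM in all 6 libraries with no called difference. The ferritin gene fth1a and the reductase gene steap3 were also lower in High-Fli1+ (adjusted p = 0.0123 and 0.0283).

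Markers of liver, gut and pancreas cells were measured beside the 9 genes. Of 23 tested genes for proteins that hepatocytes secrete, 9 were called lower in High-Fli1+ and 2 in Low-Fli1+ against Fli1- cells. All those called but fgb and fetub passed the minimum only through the Fli1- libraries. Both High-Fli1+ libraries lay below both Fli1- libraries for 18 of the 23, against 44.2% of all genes. They lay above them for 2, hp and ttr, singled out after their values were seen. In High-Fli1+ libraries hp had 2.12 and 3.16 FPKM and ttr 1.71 and 1.63 FPKM, and both were listed at 0 in Fli1- libraries. The summed level over the 31 listed genes was 62.8 and 109 FPKM in High-Fli1+, 39.8 and 99.4 FPKM in Low-Fli1+ and 128 and 234 FPKM in Fli1- libraries. The gene rbp4 gave most of it in both High-Fli1+ libraries and in Low-Fli1+ replicate 2, but not in Low-Fli1+ replicate 1. It had 49.4 and 86.5 FPKM in High-Fli1+, 11.4 and 81.9 FPKM in Low-Fli1+ and 26.4 and 70.2 FPKM in Fli1- libraries. The liver carrier gene fabp10a had 0 and 0 FPKM in High-Fli1+, 7.17 and 0 FPKM in Low-Fli1+ and 10.01 and 17.8 FPKM in Fli1- libraries and was not called (limma adjusted p = 0.0548 for High-Fli1+). Fibrinogen beta (fgb) was listed at 0 in High-Fli1+ libraries and at 9.45 and 10.9 FPKM in Fli1- libraries (adjusted p = 0.0419).

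Of 13 tested enterocyte genes, 6 were called lower in High-Fli1+ and 3 in Low-Fli1+ against Fli1- cells. All those called lower but vil1 passed the minimum only through the Fli1- libraries. Both High-Fli1+ libraries lay below both Fli1- libraries for 10 of the 13, against 44.2% of all genes, and above them for 2. In High-Fli1+ against Low-Fli1+ cells 1 was called higher, dab2, singled out after its values were seen. It had 6.87 and 5.23 FPKM in High-Fli1+, 0 and 0 FPKM in Low-Fli1+ and 2.69 and 3.53 FPKM in Fli1- libraries. The sum over 23 genes was 18.2 and 12.3 FPKM in High-Fli1+, 6.75 and 9.43 FPKM in Low-Fli1+ and 143 and 79.0 FPKM in Fli1- libraries. Villin (vil1) had 0 and 4.02 FPKM in High-Fli1+, 0 and 3.11 FPKM in Low-Fli1+ and 47.1 and 26.8 FPKM in Fli1- libraries. The cadherin gene cdh17 had 0.392 and 1.002 FPKM in High-Fli1+, 0 and 0.0252 FPKM in Low-Fli1+ and 14.1 and 7.22 FPKM in Fli1- libraries. Of 12 tested exocrine pancreas genes, 5 were called lower in High-Fli1+ and 2 in Low-Fli1+ against Fli1- cells. All those called passed the minimum only through the Fli1- libraries. The summed levels of the pancreas list were 18.2 and 4.11 FPKM in High-Fli1+, 32.5 and 52.2 FPKM in Low-Fli1+ and 146 and 53.7 FPKM in Fli1- libraries, so Low-Fli1+ replicate 2 came close to Fli1- replicate 2. Most of the Low-Fli1+ sum was cpa5, singled out after its values were seen, with 16.3 and 3.43 FPKM in High-Fli1+, 22.4 and 43.2 FPKM in Low-Fli1+ and 22.2 and 3.53 FPKM in Fli1- libraries, and no called difference. The transcription factor of that tissue, ptf1a, was at 0 in all High-Fli1+ and Low-Fli1+ libraries and at 8.32 and 9.68 FPKM in Fli1- libraries. The part of these cell types in the levels of the 9 genes was not tested.

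**Figure D4:**
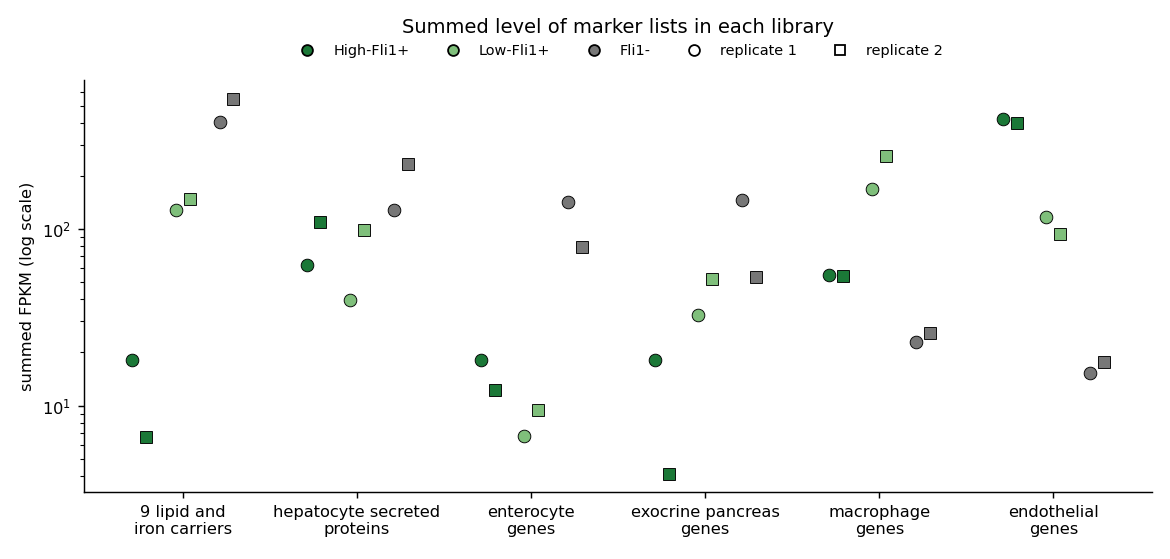
Summed FPKM (log axis) of the 9 genes and of 5 marker lists in each library, for High-Fli1+ (dark green), Low-Fli1+ (light green) and Fli1- (grey), with circles for replicate 1 and squares for replicate 2. The 9 genes and the enterocyte list are highest in both Fli1- libraries. Macrophage genes are highest in Low-Fli1+ (169 and 259 FPKM). Endothelial genes, a list that includes fli1a, are highest in High-Fli1+ (423 and 397 FPKM).

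Of 24 tested regulators of liver and gut, 6 were called lower and 1 higher in High-Fli1+ against Fli1- cells. In Low-Fli1+ against Fli1- cells 4 were lower and 1 higher, and in High-Fli1+ against Low-Fli1+ cells 1 was lower and 1 higher. Most of those called lower in High-Fli1+ against Fli1- cells passed the minimum only through the Fli1- libraries. The gene gata6 had 1.36 and 1.94 FPKM in High-Fli1+, 0 and 0.821 FPKM in Low-Fli1+ and 13.2 and 13.4 FPKM in Fli1- libraries (limma adjusted p = 0.0328 and 0.0384 against Fli1-). The gene hnf1ba was listed at 0 in High-Fli1+ and Low-Fli1+ libraries and at 10.3 and 6.34 FPKM in Fli1- libraries (adjusted p = 0.0108 and 0.0345). A different order was seen in foxa3, with 20.6 and 22.4 FPKM in High-Fli1+, 0.0423 and 0 FPKM in Low-Fli1+ and 6.69 and 8.24 FPKM in Fli1- libraries. The gene pparg, for a lipid-sensing nuclear receptor, was listed at 0 in High-Fli1+ libraries and had 9.09 and 12.6 FPKM in Low-Fli1+ and 7.53 and 2.47 FPKM in Fli1- libraries, an order it shares with apoa1a and apoc1. The hepatocyte regulator gene hnf4a was not called: it had 0 and 0 FPKM in High-Fli1+, 0 and 21.4 FPKM in Low-Fli1+ and 5.67 and 0.990 FPKM in Fli1- libraries.

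The summed level of macrophage genes stood highest in Low-Fli1+ cells, the population in which apoeb made up most of the sum of the 9 genes and apoc1 was highest. Of 14 tested, 5 were called higher in Low-Fli1+ and 2 in High-Fli1+ against Fli1- cells, and 5 were lower in High-Fli1+ than in Low-Fli1+ cells. The sum over 17 genes was 55.0 and 54.5 FPKM in High-Fli1+, 169 and 259 FPKM in Low-Fli1+ and 22.8 and 25.7 FPKM in Fli1- libraries. The perforin-like marker mpeg1.1 had 0.670 and 0.412 FPKM in High-Fli1+, 13.2 and 23.7 FPKM in Low-Fli1+ and 3.26 and 3.50 FPKM in Fli1- libraries. The myeloid transcription factor gene spi1b had 9.91 and 10.3 FPKM in High-Fli1+, 31.8 and 50.8 FPKM in Low-Fli1+ and 3.50 and 4.20 FPKM in Fli1- libraries. It was called higher in Low-Fli1+ than in Fli1- cells (limma adjusted p = 0.0239). Not every gene of the list had this order. The gene csf1rb had 21.1 and 18.4 FPKM in High-Fli1+, 22.2 and 14.8 FPKM in Low-Fli1+ and 0.583 and 0.885 FPKM in Fli1- libraries. It was called higher than Fli1- in both (limma adjusted p = 0.0053 and 0.0237). The genes c1qa and c1qc were listed at 0 in all 6 libraries, and marco and mfap4 at 0 in Low-Fli1+ replicate 1. In Fli1- libraries, whose apoeb values overlapped those of Low-Fli1+ libraries, the macrophage sum was lower than in either Low-Fli1+ library. The part of macrophages in the level of apoeb or apoc1 was not tested.

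Of 19 endothelial genes, 13 were called higher in High-Fli1+ against Fli1- cells, 2 in Low-Fli1+ against Fli1- cells and 4 in High-Fli1+ against Low-Fli1+ cells. The 2 were fli1a, whose regulatory sequence drives the reporter, and fli1b. Some of the 13 and some of the 4 passed the minimum only through the High-Fli1+ libraries, where they are high. Those counts therefore depend on the filter. The sum of the 19 was 423 and 397 FPKM in High-Fli1+, 117 and 93.5 FPKM in Low-Fli1+ and 15.2 and 17.5 FPKM in Fli1- libraries. This is the reverse of the order of the sum of the 9 genes. Of the endothelial sum, fli1a alone gave 241 and 192 FPKM in High-Fli1+ and 66.8 and 52.0 FPKM in Low-Fli1+ libraries. Part of that order therefore follows from the reporter signal that names the populations. Single endothelial genes differed from this order: 3 of the 19 had both Low-Fli1+ libraries below both Fli1- libraries (30.5% of all genes). Another 8 had both above (18.9% of all genes). The vessel gene tie1 had 14.3 and 14.3 FPKM in High-Fli1+, 1.26 and 1.62 FPKM in Low-Fli1+ and 0.208 and 0 FPKM in Fli1- libraries. The junction gene cdh5 had 14.4 and 17.0 FPKM in High-Fli1+, 2.81 and 0 FPKM in Low-Fli1+ and 3.62 and 1.47 FPKM in Fli1- libraries and was not called. Of the list genes named by the rule, 1 of 38 calls in High-Fli1+ against Fli1- (fabp7a), 0 of 18 in Low-Fli1+ against Fli1- and 0 of 11 in High-Fli1+ against Low-Fli1+ were kept without each library in turn.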

How the data were processed

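Per the labels, 100 ng of total RNA a library was poly-A enriched and converted to cDNA. The authors deposited 1 table of FPKM by gene and library, the unit per the file headers. The aligner, genome build and annotation are not given in the sources used here, and depth is unknown. Of the deposited entries, 18 named by a calendar date were left out, and 29126 genes remained.

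All else was computed here. FPKM was taken as log2(FPKM + 1) with no further scaling. With limma 3.58.1 (R 4.3.3), all 6 libraries were fitted together by population with a variance trend (3 residual and 2.89 prior degrees of freedom), over 19237 genes with a mean of at least 0.5 FPKM; 9889 were below it. Every adjusted p is Benjamini-Hochberg over these genes. Lists named 232 genes, of which 216 were found, 5 by a synonym. Named beside the 9 genes are up to 4 called genes a list with the largest fold changes, a fixed set (hnf4a, mtp, apobb.1, fabp10a, tfr1a, tfr1b, ldlra, scarb1, lpl, mpeg1.1, spi1b, fli1a and cdh5, with 1 further gene not reported here) and the 3 nearest profiles to each gene. The 9 genes and the lists were chosen with earlier results of these data known. Gene order came from RefSeq, where all 9 matched by symbol. Alternatives were other pseudocounts, filters, scalings, variance models, a replicate block and leaving out each library.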

Additional observations from a re-analysis of the deposited data

How the results depend on the processing

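Depth is unknown, so what a listed 0 allows cannot be stated, and 2 libraries a population leave 1 library able to end a call. The labels used here do not say whether same-numbered libraries belong together. Deviations of same-numbered libraries correlated at 0.121 (High-Fli1+ with Low-Fli1+), 0.0806 (High-Fli1+ with Fli1-) and 0.0962 (Low-Fli1+ with Fli1-). These values are weak and do not exclude pairing. The Metazoa_SRP share was higher in replicate 2 than in replicate 1 of High-Fli1+ (27.4% against 2.57%), Low-Fli1+ (8.81% against 1.77%) and Fli1- (13.2% against 7.78%). With the replicate number as a block, High-Fli1+ against Fli1- had 5 of the 9 genes called (6 without the block), Low-Fli1+ against Fli1- had 1 (also 1) and High-Fli1+ against Low-Fli1+ had 1 (3), while 335 genes of the table were called in Low-Fli1+ against Fli1-, against 622.

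In Low-Fli1+ against Fli1-, 4 of the 9 genes were called with a pseudocount of 5, 2 with a mean FPKM of at least 2, 3 with quantile normalization and 0 with only the populations compared. In High-Fli1+ against Fli1-, 2 were called without a filter. In High-Fli1+ against Low-Fli1+, 1 was called without a filter, 1 with array weights and 0 with only the populations compared. Over the table, High-Fli1+ against Low-Fli1+ gave 183 calls without a filter, 0 with only the populations compared and 366 with array weights, against 1033. Low-Fli1+ against Fli1- gave 0 with only the populations compared and 238 with array weights, against 622, and High-Fli1+ against Fli1- gave 5659 with array weights, against 3316. Without 1 library, calls ranged from 201 to 4906 in High-Fli1+ against Fli1-, from 0 to 797 in Low-Fli1+ against Fli1- and from 0 to 2262 in High-Fli1+ against Low-Fli1+, and of the 9 genes from 0 to 7, 0 to 3 and 0 to 4. The lone library left in a population was assumed to vary like the others. In High-Fli1+ against Low-Fli1+, median-ratio scaling split the calls into 385 higher and 568 lower, against 234 and 799 as deposited.

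Signs turned for uncalled differences alone, on the log2(FPKM + 1) scale, and the cause was not tested. For tfa in High-Fli1+ against Low-Fli1+ (0.11 as reported), a pseudocount of 5 gave -0.13, and leaving out 1 library gave -1.39 (Low-Fli1+ replicate 2) to 1.62, with -0.10 without High-Fli1+ replicate 2. For apoa2 there (-0.89), leaving out 1 library gave -3.09 to 1.31 (Low-Fli1+ replicate 1), with 0.42 without High-Fli1+ replicate 2. For apoeb in Low-Fli1+ against Fli1- (-0.02), quantile normalization gave 0.0275, scaling without Metazoa_SRP 0.16, and leaving out 1 library -0.37 to 0.33 (Low-Fli1+ replicate 1), with 0.16 without Fli1- replicate 2. For apoea in High-Fli1+ against Fli1- (-0.09), quantile normalization gave 0.49, median-ratio scaling 0.0229, and leaving out 1 library -0.76 to 0.59 (Fli1- replicate 2), with 0.50 without High-Fli1+ replicate 1. For apoea in Low-Fli1+ against Fli1- (-0.04), quantile normalization gave 0.34, and leaving out 1 library -0.72 to 0.64 (Fli1- replicate 2), with 0.60 without Low-Fli1+ replicate 1. For apoea in High-Fli1+ against Low-Fli1+ (-0.05), quantile normalization gave 0.16, median-ratio scaling 0.0642, and leaving out 1 library -0.69 to 0.59 (Low-Fli1+ replicate 2), with 0.54 without High-Fli1+ replicate 1.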
